A study of Mus musculus with 6 samples.

Results

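The matrix metalloproteinases (Mmp genes), the Adam and Adamts proteases and the tissue inhibitors of metalloproteinases (Timp genes) were examined in cultured lung mesenchymal stromal cells (LMSCs). Members were set by a rule on the gene symbol that used no measured value. Each symbol had to be Mmp, Adam, Adamts or Timp followed by its number. An a or b was allowed after an Mmp or Adam number. The members and the lists of other genes were nevertheless chosen with earlier results of these data known. Of the 34745 genes listed, 79 met this rule, namely 23 Mmp, 33 Adam, 19 Adamts and 4 Timp genes. The cells came from MMTV-PyMT mice, in which a mammary tumor virus promoter, active mainly in mammary epithelium, drives the polyoma middle T antigen, and mammary tumors arise that spread to the lung. The series holds 2 libraries of A-LMSCs (adenoma stage, mice of 6 to 7 weeks per the labels), 2 of PM-LMSCs (pre-metastatic stage, 9 to 10 weeks) and 2 of M-LMSCs (metastatic stage, 13 to 14 weeks), and a further library of each stage that the study describes was not analysed here. All mice carried the transgene and all cultures were at passage 3, and no library of tumor-free lung served as a baseline. Stage and age of the mouse cannot be told apart in this design. The study's text gives slightly older ages than the labels for the first and second stages. Lung cells had been selected by adherence and by removal of CD45+ cells on magnetic beads before culture. The study describes several mice per stage, whereas the labels do not tie a library to a mouse, so that p-values measure only the spread between these libraries.

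Matrix metalloproteinases are zinc-dependent endopeptidases that are made as inactive proenzymes and cut collagens, proteoglycans and other matrix proteins, some after secretion and some from the cell membrane. ADAM proteases carry a disintegrin domain and, where catalytically active, release growth factors, cytokines and receptors from the cell surface, while the secreted ADAMTS proteases cut proteoglycans and trim procollagens. The TIMPs bind the active sites of these enzymes and hold them in check. In the lung, stromal cells are a source of several of them, and macrophages and neutrophils are known for Mmp12, Mmp8 and Mmp9.

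Expression was given as FPKM, a fragment count divided by gene length and library total. Depth was estimated from the spacing of the low values at 14.8 to 20.8 M (mega-) fragments per library. The members together took between 0.891% and 1.057% of a library's summed FPKM. Log-scale profiles of all tested genes correlated at 0.9915 between the 2 A-LMSC libraries, 0.9849 between the PM-LMSC libraries and 0.977 between the M-LMSC libraries, and at 0.9663 to 0.9866 between libraries of different stages. The M-LMSC libraries were thus less alike than several pairs of libraries from different stages. PM-LMSC replicate 2 likewise correlated more with the A-LMSC libraries, at 0.9861 and 0.9866, than with PM-LMSC replicate 1. All 11 stromal markers examined, among them Col1a1 and Pdgfra, had a mean of at least 1 FPKM, while Ptprc, the gene of CD45, stayed at or below 0.0987 FPKM. The 6 endothelial markers summed to between 1.59 and 2.68 FPKM per library, and 1 of them, Kdr, had a mean of at least 1 FPKM. The haematopoietic list of 14 genes was not absent from the cultures, with 9 genes at a mean of at least 1 FPKM and a summed level led by Lyz2, and its values are given beside Adam8 and Mmp12.

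Of the Mmp genes, 10 lie side by side on chromosome 9, and the starts of those measured there are shown because stromelysins and collagenases are textbook targets of the AP-1 transcription factors. This cluster spans chr9:7272514-7699585 of GRCm38 (427 kb) in the order Mmp13, Mmp12, Mmp1b, Mmp3, Mmp1a, Mmp10, Mmp8, Mmp27, Mmp20 and Mmp7, all on the plus strand except Mmp1b. The AP-1 motif was searched as TGAGTCA or TGACTCA, which are each other's reverse complement, in the 250 bases before each start listed by RefSeq for GRCm38.p6. It was found in 7 of the 10 clustered genes, all but Mmp8, Mmp27 and Mmp20. Among all 27025 genes of the table, 5.16% had it, as did 4.46% of the 32851 promoters. Of the 79 members, 49 matched the table and 9 had the motif, the other two being Adam19 and Adam29. A motif of the STAT type, TTC and GAA with 4 bases of any kind between them on either strand, was found in 3 matched members (Adam19, Adam20 and Adam25) against 6.76% of all genes. In no member did both motifs occur before the same start. The 120 bases before the start are given below for 4 clustered genes that carry the motif and had a mean of at least 1 FPKM, 5′ to 3′ on the plus strand, with the AP-1 motif in capitals.
Mmp13, chr9:7272394-7272513: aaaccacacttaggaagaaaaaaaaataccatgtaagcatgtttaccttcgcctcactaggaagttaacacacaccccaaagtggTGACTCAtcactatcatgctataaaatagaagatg
Mmp12, chr9:7347254-7347373: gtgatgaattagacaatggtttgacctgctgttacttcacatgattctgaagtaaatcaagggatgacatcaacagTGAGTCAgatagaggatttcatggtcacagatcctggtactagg
Mmp3, chr9:7445702-7445821: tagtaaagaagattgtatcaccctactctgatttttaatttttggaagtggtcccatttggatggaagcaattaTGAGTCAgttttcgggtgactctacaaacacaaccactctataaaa
Mmp10, chr9:7502222-7502341: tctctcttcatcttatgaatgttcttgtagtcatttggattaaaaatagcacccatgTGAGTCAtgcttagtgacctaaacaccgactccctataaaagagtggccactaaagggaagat
The motif began 35 bases before the start of Mmp13, 46 before that of Mmp3 and 63 before that of Mmp10. For Mmp12 it began 44 bases before the downstream of its listed starts, and the 120 bases before the upstream start held none. A match of these letters is a description of the sequence and not a binding site shown in these cells.

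The condition for testing, at least 1 FPKM on average, was met by 33 of the 79 members: 12 Mmp, 8 Adam, 10 Adamts and 3 Timp genes. The other 46 were below it, and 15 of these were listed at 0 in every library. The 21 Adam genes listed neither as sheddases, which release proteins from the cell surface, nor as neural ADAMs were all among the 46. Many of these 21 are known from the testis, and 12 of the 21 were at 0 throughout. The plot of levels in all 6 libraries shows an order that varied far more between genes than between stages. FPKM is scaled to length, so these levels can be set beside each other, but only roughly. They were not corrected for GC content or for overlaps with genes on the opposite strand.

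**Figure D1:**
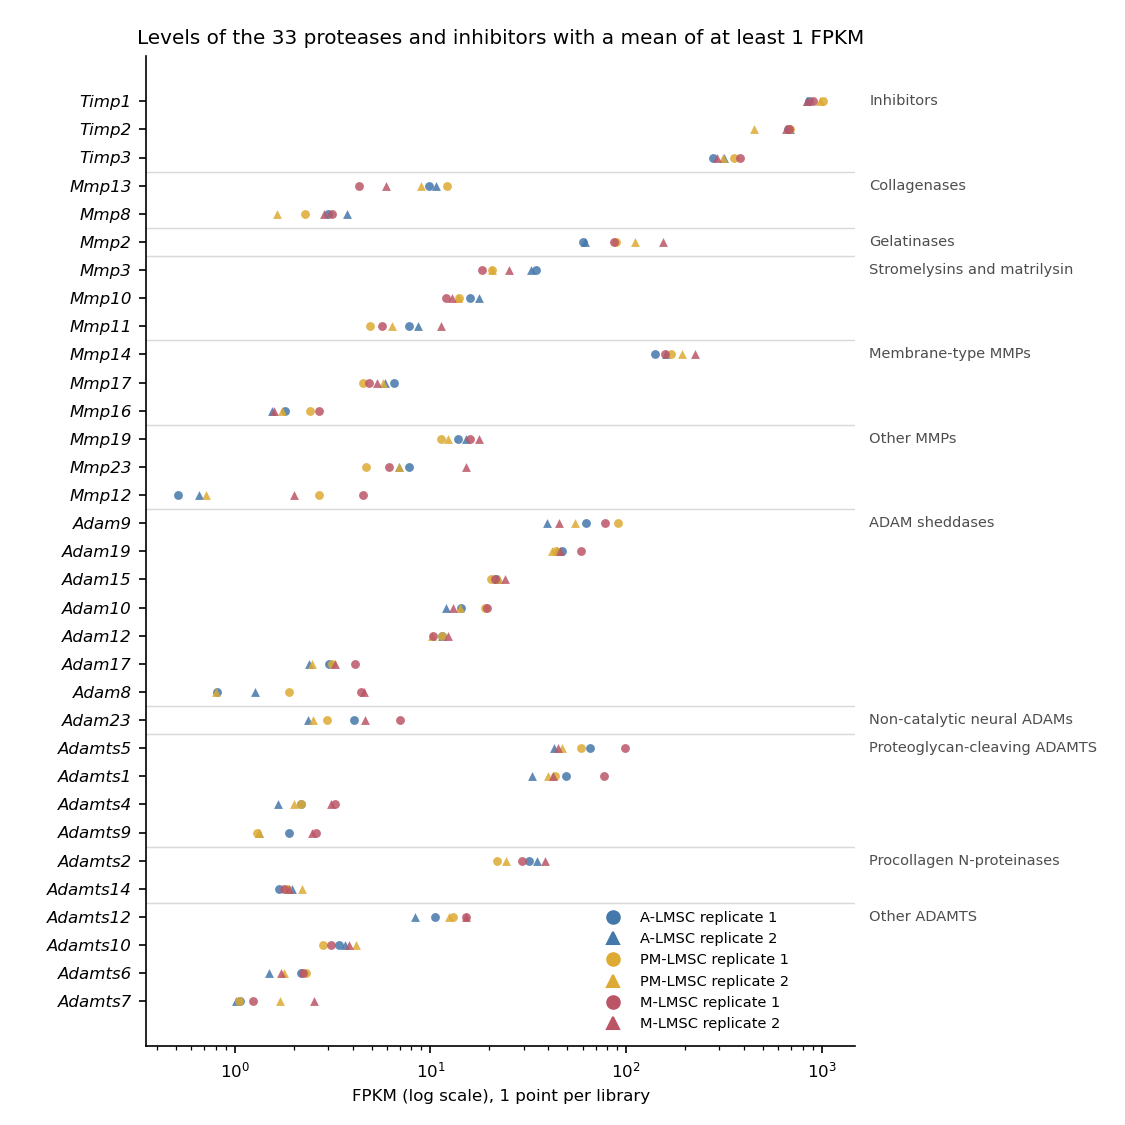
FPKM (log axis) of each of the 33 members with a mean of at least 1 FPKM, by role, with 1 point per library, the color giving the stage and the shape the replicate number. Timp1, Timp2 and Timp3 lie above every protease in every library, and Mmp14 and Mmp2 lead the metalloproteinases.

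The inhibitors were the most abundant members at every stage. Timp1 (chrX:20870166-20874735), a broad inhibitor of secreted MMPs, measured 865 and 839 (A-LMSCs), 1013 and 984 (PM-LMSCs) and 901 and 837 FPKM (M-LMSCs). Both PM-LMSC libraries were above the other 4, by a ratio of stage means of 1.172 to A-LMSCs. Timp2 (chr11:118301069-118355740), which also takes part with Mmp14 in activating Mmp2, measured 675 and 691 (A-LMSCs), 691 and 450 (PM-LMSCs) and 683 and 655 FPKM (M-LMSCs). PM-LMSC replicate 2 alone was low, and the other 5 libraries lay between 655 and 691 FPKM. Timp3 (chr10:86300372-86349506), the inhibitor that binds to the matrix and acts on Adam17 and the ADAMTS aggrecanases, measured 278 and 317 (A-LMSCs), 357 and 313 (PM-LMSCs) and 380 and 293 FPKM (M-LMSCs), with overlapping stages. Exons of Timp3 and the antisense gene Syn3 overlap over 1733 bases, and whether strand was used in counting is not given in the sources used here. Timp4 stayed at or below 0.029 FPKM. In none of the contrasts did a Timp gene have an unadjusted limma p under 0.05, with or without the replicate number as a block.

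Summed over the family, the TIMPs made up 69.2% to 75.6% of the members' FPKM. The summed TIMPs stood at 5.96 and 5.64 (A-LMSCs), 6.07 and 4.56 (PM-LMSCs) and 6.03 and 3.69 (M-LMSCs) times the summed MMPs. Replicate 2 was the lower library at each stage, and the replicate 1 libraries of the 3 stages lay between 5.96 and 6.07. This ratio therefore varied more between the libraries of a later stage than between the stages in replicate 1. In replicate 2 it was lower at each later stage, at 5.64 (A-LMSCs), 4.56 (PM-LMSCs) and 3.69 (M-LMSCs). The summed MMPs measured 305 and 327 (A-LMSCs), 339 and 383 (PM-LMSCs) and 326 and 483 FPKM (M-LMSCs), of which Mmp14 and Mmp2 were the main components.

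Differences between stages were tested with limma on log2(FPKM + 1) over the 10279 genes that met this condition, and p-values were adjusted over all of them by the Benjamini-Hochberg method. This main fit did not pair libraries by replicate number, and standard errors below are its own unless stated. None of the 33 members reached an adjusted p under 0.05 in any contrast, where 0.0389% of all tested genes did so for PM-LMSCs against A-LMSCs, 0.0681% for M-LMSCs against A-LMSCs, 0.0292% for M-LMSCs against PM-LMSCs, and 0.126% for both later stages together against A-LMSCs. At an unadjusted p under 0.05, limma gave 5 members for PM-LMSCs against A-LMSCs (background 6.53% of tested genes), 10 for M-LMSCs against A-LMSCs (14.6%), 8 for M-LMSCs against PM-LMSCs (8.94%) and 9 for both later stages against A-LMSCs (11.2%). Libraries with the same replicate number deviated together, and with that number as a block limma called 6 members for M-LMSCs against A-LMSCs, where the background was 3.92%. Of these, Adam8, Mmp12, Mmp2, Adam23 and Adamts12 were higher (background 2.28%) and Mmp13 was lower (background 1.64%). Mmp12 met the condition for testing only through its later libraries. With the block the other contrasts gave 0 members by adjusted p, with backgrounds of 0.292%, 0.418% and 2.05%, and 11, 15 and 14 members at an unadjusted p under 0.05, with backgrounds of 13.8%, 16.0% and 20.8%. M-LMSCs against A-LMSCs gave 15 members at an unadjusted p under 0.05 with the block, with a background of 24.3%.

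**Figure D2:**
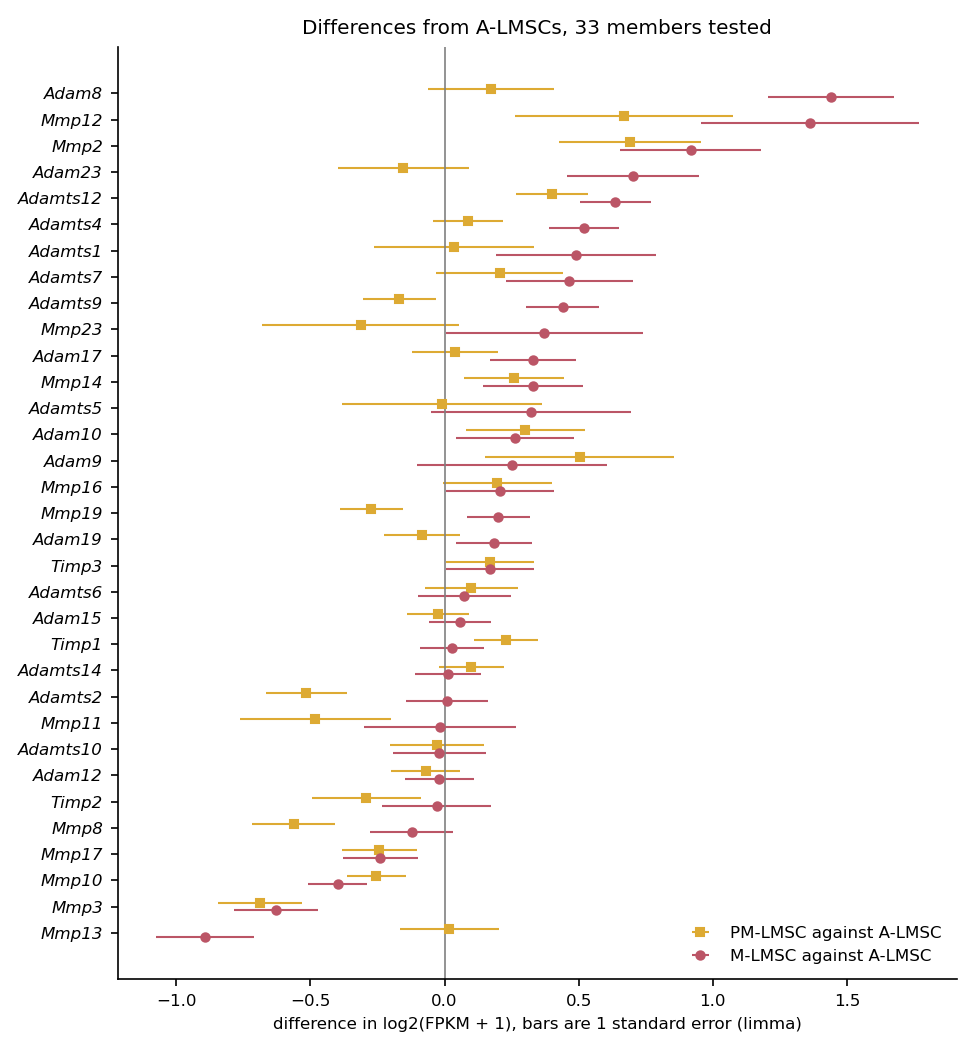
Difference in log2(FPKM + 1) from A-LMSCs of the 33 tested members (horizontal axis), for PM-LMSCs (squares) and M-LMSCs (circles), with bars of 1 standard error from limma without the block; n = 2 libraries per stage. Adam8, Mmp12 and Mmp2 lie farthest to the right and Mmp13 and Mmp3 farthest to the left in M-LMSCs, and both sets of points share the A-LMSC libraries.

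The median difference of the 33 members was 0.20 for M-LMSCs against A-LMSCs on the log2(FPKM + 1) scale, beside 0.03 over all tested genes. Above 0 were 24 members and 5618 of all 10279 tested genes. For PM-LMSCs against A-LMSCs it was 0.02, beside 0.01 over all tested genes, with 17 members and 5401 of all tested genes above 0. For M-LMSCs against PM-LMSCs it was 0.24, beside -0.002 over all tested genes, with 25 members and 5078 of all tested genes above 0. These medians describe the list and were not tested.

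In the chromosome 9 cluster, the stromelysins Mmp3 and Mmp10 lay below both A-LMSC libraries in all 4 later libraries, and the collagenase Mmp13 lay below them in both M-LMSC libraries. Mmp12 of the same cluster went the other way, above both A-LMSC libraries in all 4 later ones, and Mmp8 was lower in PM-LMSCs alone. None of these differences passed the test without the block. Mmp3 (stromelysin-1, chr9:7445822-7455975), which cuts proteoglycans and activates other proenzymes, measured 34.7 and 32.7 (A-LMSCs), 20.5 and 20.5 (PM-LMSCs) and 18.3 and 25.1 FPKM (M-LMSCs). All 4 later libraries were below both A-LMSC libraries, with means 0.61 (PM-LMSCs) and 0.643 (M-LMSCs) times that of A-LMSCs. On the log2(FPKM + 1) scale, Mmp3 was lower by -0.69 in PM-LMSCs (SE 0.156, limma adjusted p = 0.4184) and by -0.63 in M-LMSCs (SE 0.156, limma adjusted p = 0.1564). For both later stages together the Mmp3 difference was -0.66 (SE 0.135), with a limma adjusted p of 0.193, or 0.05207 with the block, in a range of 0.03926 to 0.9994 over the alternatives. Mmp3 has 284 bases in common with Gm15242 (95.4% identical), so fragments could have been split between them.

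Mmp10 (stromelysin-2, chr9:7502352-7510240), a close relative of Mmp3, measured 15.9 and 17.7 (A-LMSCs), 14.0 and 13.8 (PM-LMSCs) and 12.1 and 12.9 FPKM (M-LMSCs). The stages did not overlap, and the M-LMSC mean was 0.743 times that of A-LMSCs. Mmp10 had a log2 difference of -0.25 in PM-LMSCs (SE 0.111, limma adjusted p = 0.7874) and -0.40 in M-LMSCs (SE 0.111, limma adjusted p = 0.1949). Over both later stages it was -0.33 (SE 0.096, limma adjusted p = 0.282).

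Mmp13 (collagenase-3, chr9:7272514-7283331), an enzyme that opens the triple helix of fibrillar collagen and the main rodent interstitial collagenase, differed in another way. It measured 9.88 and 10.7 (A-LMSCs), 12.1 and 8.99 (PM-LMSCs) and 4.34 and 5.93 FPKM (M-LMSCs). A- and PM-LMSCs overlapped, whereas both M-LMSC libraries were below the other 4, at 0.498 times the A-LMSC mean and 0.487 times the PM-LMSC mean. The log2 difference of M-LMSCs from A-LMSCs was -0.89 (SE 0.184), with a limma adjusted p of 0.1185, or 0.0458 with the block, in a range of 0.0458 to 0.6574 over the alternatives. Against PM-LMSCs the Mmp13 difference was -0.91 (SE 0.184, limma adjusted p = 0.2393), and for both later stages together against A-LMSCs it was -0.44 (SE 0.16, limma adjusted p = 0.3996). The ratio of Mmp3 to Mmp13 was 3.52 and 3.05 (A-LMSCs), 1.70 and 2.29 (PM-LMSCs) and 4.22 and 4.23 (M-LMSCs).

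Mmp8 (collagenase-2, chr9:7558456-7568485), better known as the neutrophil collagenase, measured 3.01 and 3.73 (A-LMSCs), 2.29 and 1.64 (PM-LMSCs) and 3.13 and 2.87 FPKM (M-LMSCs). Only PM-LMSCs lay below the other stages, at 0.583 times the A-LMSC mean. The log2 difference of Mmp8 was -0.56 for PM-LMSCs against A-LMSCs (SE 0.155, limma adjusted p = 0.5084), 0.44 for M-LMSCs against PM-LMSCs (SE 0.155, limma adjusted p = 0.4842), and -0.34 for both later stages against A-LMSCs (SE 0.134, limma adjusted p = 0.4272). The neutrophil genes Ly6g and S100a9 were listed at 0 in every library, and the 6 neutrophil markers summed to at most 0.799 FPKM. The remaining collagenases were near the limit of detection, with Mmp1a at 0 throughout and Mmp1b between 0.167 and 0.662 FPKM. Mmp11 (stromelysin-3), which lies outside the cluster on chromosome 10, measured 7.78 and 8.65 (A-LMSCs), 4.93 and 6.33 (PM-LMSCs) and 5.69 and 11.4 FPKM (M-LMSCs). The unadjusted p of Mmp11 was under 0.05 only with the block, at a log2 difference of -0.48 for PM-LMSCs against A-LMSCs (SE 0.282, limma adjusted p = 0.8472) and 0.47 for M-LMSCs against PM-LMSCs (SE 0.282, limma adjusted p = 0.6772).

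**Figure D3:**
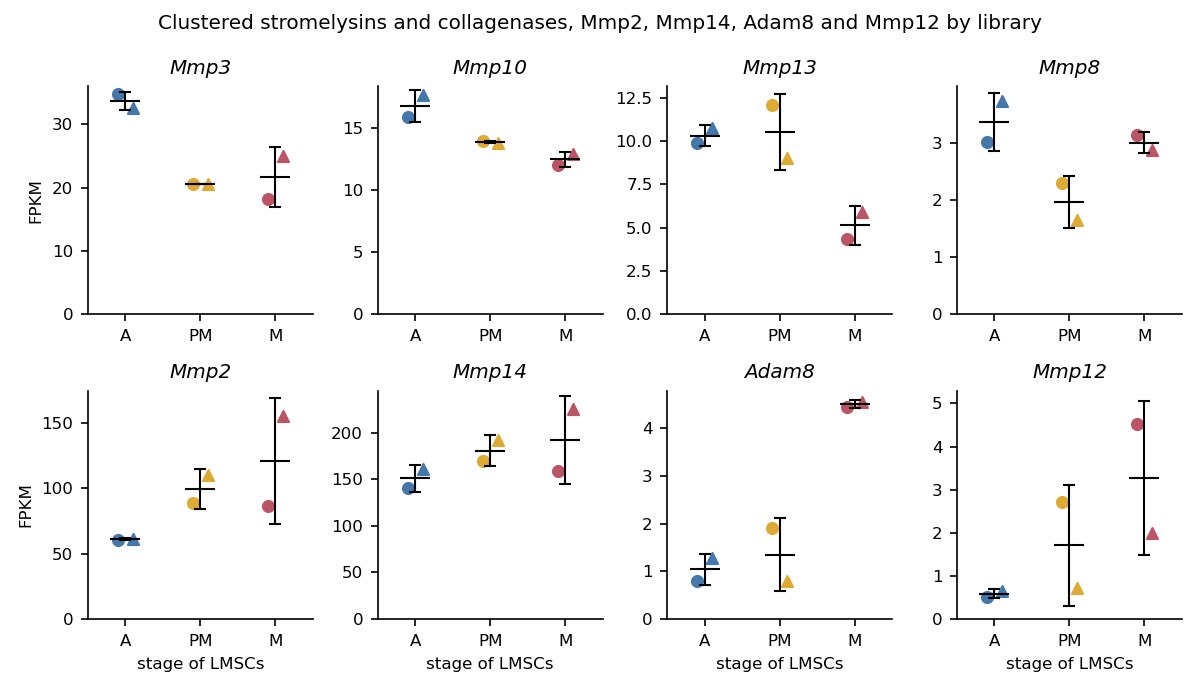
FPKM of 8 members by stage (A, PM and M), with 1 point per library, horizontal bars at the mean and error bars of 1 SD (n = 2); circles are replicate 1 and triangles replicate 2. Mmp3 lies between 32.7 and 34.7 FPKM in A-LMSCs and between 18.3 and 25.1 FPKM later, and both M-LMSC libraries lie below the other 4 for Mmp13 and above them for Adam8.

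The gelatinase Mmp2 and the membrane-type Mmp14 were the most abundant metalloproteinases, and Mmp2 was higher in every later library than in A-LMSCs. Mmp2 (chr8:92827291-92853420), which cuts denatured collagen and the collagen of basement membranes, measured 60.5 and 61.5 (A-LMSCs), 88.7 and 110.6 (PM-LMSCs) and 86.7 and 155 FPKM (M-LMSCs). All 4 later libraries were above both A-LMSC libraries, and M-LMSC replicate 2 was the highest. The stage means were 1.634 and 1.983 times that of A-LMSCs. On the log2 scale, Mmp2 differed by 0.69 in PM-LMSCs (SE 0.264, limma adjusted p = 0.6978) and 0.92 in M-LMSCs (SE 0.264), the latter with a limma adjusted p of 0.2088, or 0.04565 with the block, in a range of 0.02334 to 0.7529 over the alternatives. Over both later stages together the Mmp2 difference was 0.80 (SE 0.228, limma adjusted p = 0.277). For the mesothelial markers Msln, Upk1b, Upk3b, Wt1, Lrrn4, Krt19, Krt7, Muc16 and Gpm6a, of which 8 had a mean of at least 1 FPKM and 7 were above both A-LMSC libraries in all later ones, the summed level was 121.2 and 179 (A-LMSCs), 297 and 417 (PM-LMSCs) and 199 and 499 FPKM (M-LMSCs). The background of tested genes above both A-LMSC libraries in all later ones was 10.7%, and none of the 9 was at 0 in every library. Krt19 lay the other way, at 13.8 and 17.3 (A-LMSCs), 8.09 and 9.28 (PM-LMSCs) and 4.92 and 4.49 FPKM (M-LMSCs). The 6 libraries fell in the same order by Mmp2 as by this sum, whose part in the result was not tested. Of 10 epithelial markers, 2 (Krt8 and Krt18) had a mean of at least 1 FPKM, and the list summed to 3.74 and 5.89 (A-LMSCs), 10.6 and 18.7 (PM-LMSCs) and 11.2 and 24.6 FPKM (M-LMSCs). In both M-LMSC libraries 9 of the 10 were above both A-LMSC libraries, where 27.1% of tested genes were so. Only 2 of the 10 met the condition for testing, so this background is for more abundant genes than most of the list. Epcam was listed at 0 in A- and PM-LMSCs and at 0.326 and 0.473 FPKM in M-LMSCs. The part of the epithelial list in the results was not tested either. In bulk RNA, fewer cells of a type and less RNA per cell cannot be told apart.

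Mmp14 (MT1-MMP, chr14:54431612-54445364), the membrane-bound collagenase that activates pro-Mmp2, measured 140.5 and 161 (A-LMSCs), 169 and 192 (PM-LMSCs) and 159 and 226 FPKM (M-LMSCs). Both PM-LMSC libraries were above A-LMSCs, while M-LMSCs overlapped with them. Mmp14 had a log2 difference of 0.33 in M-LMSCs (SE 0.186, limma adjusted p = 0.4462) and 0.30 over both later stages (SE 0.161, limma adjusted p = 0.5347), and the unadjusted p was under 0.05 only with the block. The level of Mmp2 over that of Mmp14 was 0.431 and 0.382 (A-LMSCs), 0.525 and 0.576 (PM-LMSCs) and 0.546 and 0.687 (M-LMSCs), with no overlap between A-LMSCs and the later stages. Among the other membrane-type enzymes, Mmp17 ranged from 4.50 to 6.52 FPKM and Mmp16 from 1.55 to 2.71 FPKM. Both later stages of Mmp17 were below both A-LMSC libraries, at 0.823 and 0.822 times their mean, without an unadjusted p under 0.05. Mmp15 reached 0.848 FPKM at most and the other gelatinase, Mmp9, 0.628 FPKM.

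Mmp12 (macrophage elastase, chr9:7344381-7369499), which also lies in the chromosome 9 cluster, measured 0.516 and 0.66 (A-LMSCs), 2.71 and 0.715 (PM-LMSCs) and 4.53 and 2.00 FPKM (M-LMSCs). All 4 later libraries were above both A-LMSC libraries, PM-LMSC replicate 2 by little. The M-LMSC mean was 5.558 times that of A-LMSCs. With an A-LMSC mean of 0.588 FPKM, Mmp12 met the condition for testing only through the later libraries, where it was higher. The log2 difference of Mmp12 for M-LMSCs against A-LMSCs was 1.36 (SE 0.406), with a limma adjusted p of 0.2218, or 0.0458 with the block, in a range of 0.0458 to 0.7374 over the alternatives. With the block and the correction for GC content and length it was 1.20 (limma adjusted p = 0.06588), so the blocked call was lost. It was 0.67 for PM-LMSCs against A-LMSCs (SE 0.406, limma adjusted p = 0.854), 0.69 for M-LMSCs against PM-LMSCs (SE 0.406, limma adjusted p = 0.6718) and 1.01 for both later stages against A-LMSCs (SE 0.352, limma adjusted p = 0.3655). At these levels a library held an estimated 77.8 to 542.6 fragments of Mmp12, if fragments were counted over all of its annotated exons. An exon of Mmp12 overlaps one of Mmp1b on the opposite strand over 157 bases.

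Adam8 (chr7:139978932-139992562), a sheddase best known from leukocytes, measured 0.808 and 1.27 (A-LMSCs), 1.90 and 0.805 (PM-LMSCs) and 4.44 and 4.56 FPKM (M-LMSCs). A- and PM-LMSCs overlapped, and both M-LMSC libraries were above the other 4, with a mean 4.322 times that of A-LMSCs and 3.328 times that of PM-LMSCs. The log2 difference for M-LMSCs against A-LMSCs was 1.44 (SE 0.235), with a limma adjusted p of 0.09602, or 0.02497 with the block, in a range of 0.02497 to 0.4251 over the alternatives. For M-LMSCs against PM-LMSCs the Adam8 difference was 1.27 (SE 0.235, limma adjusted p = 0.2166), and for both later stages against A-LMSCs it was 0.81 (SE 0.203, limma adjusted p = 0.238). The estimated fragments of Adam8 ranged from 59.3 to 350.6 per library.

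Haematopoietic genes, like Adam8 and Mmp12, were higher in both M-LMSC libraries than in both A-LMSC libraries. The 14 markers (Ptprc, Itgam, Adgre1, Cd68, Csf1r, Cd14, Lyz2, Tyrobp, Fcer1g, Laptm5, Cd52, Cd53, Coro1a and Lcp1) summed to 143 and 134 (A-LMSCs), 184 and 85.7 (PM-LMSCs) and 435 and 315 FPKM (M-LMSCs). Without Lyz2, the most abundant, the sums were 28.2 and 27.8 (A-LMSCs), 37.5 and 25.1 (PM-LMSCs) and 73.1 and 64.9 FPKM (M-LMSCs). All 14 were higher in both M-LMSC libraries than in both A-LMSC libraries, where 27.1% of all tested genes were so, and none was at 0 in every library. Only 9 of the 14 met the condition for testing, so the list and this background differ in level. The libraries did not fall in the same order by Mmp12 as by the sum of all 14. M-LMSC replicate 2 had less Mmp12 (2.00 FPKM) than PM-LMSC replicate 1 (2.71 FPKM). PM-LMSC replicate 2 had the lowest sum but more Mmp12 (0.715 FPKM) than both A-LMSC libraries. By Adam8, M-LMSC replicate 2 (4.56 FPKM) was slightly above M-LMSC replicate 1 (4.44 FPKM). The part of these markers in the Adam8 and Mmp12 results was not tested.

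**Figure D4:**
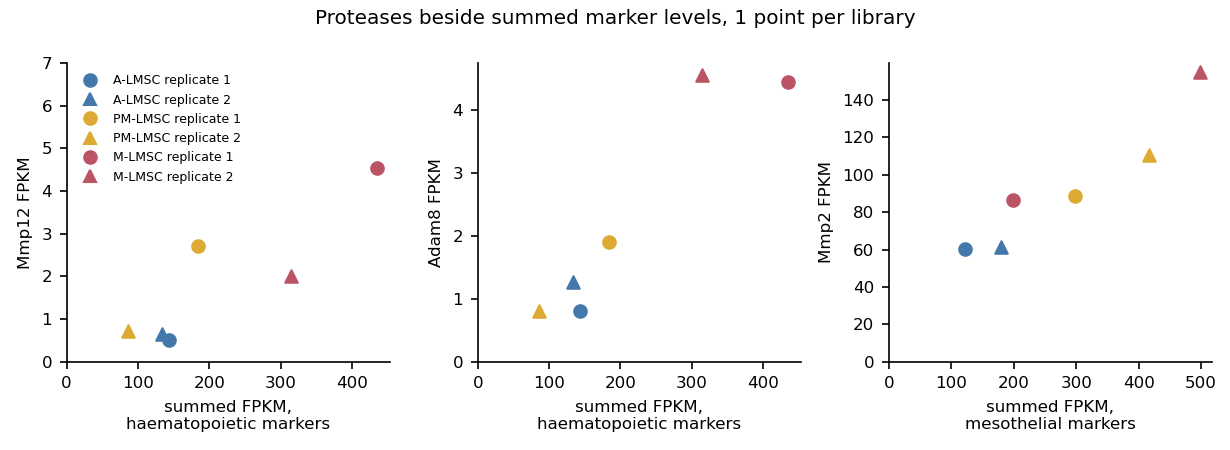
FPKM of Mmp12 and Adam8 (vertical axes) against the summed FPKM of 14 haematopoietic markers, and of Mmp2 against that of 9 mesothelial markers, with 1 point per library. The M-LMSC libraries lie at 315 and 435 FPKM of the haematopoietic sum, to the right of the other 4, and Mmp2 follows the order of the mesothelial sum.

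No other ADAM sheddase was called, with or without the block. Adam9, which releases growth factors of the EGF family, measured 62.5 and 39.6 (A-LMSCs), 91.5 and 55.0 (PM-LMSCs) and 77.9 and 45.4 FPKM (M-LMSCs). Replicate 1 was above replicate 2 at every stage by more than the stage means differed, and within each replicate number the order was A-, M- and PM-LMSCs. The log2 difference of Adam9 was 0.50 for PM-LMSCs (SE 0.354 without the block, 0.097 with it), with a limma adjusted p of 0.8588, or 0.1011 with the block, in a range of 0.1011 to 1.0 over the alternatives. Adam9 differed by 0.25 in M-LMSCs against A-LMSCs (limma adjusted p = 0.7479), by -0.25 in M-LMSCs against PM-LMSCs (limma adjusted p = 0.8573) and by 0.38 in both later stages against A-LMSCs (limma adjusted p = 0.641), and without 1 library the first and second of these turned their sign.

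Adam10 and Adam17, the main sheddases of Notch receptors and of tumor necrosis factor, were unequal in level, with Adam17 at 0.166 to 0.25 times the FPKM of Adam10 in all libraries. Adam10 measured 14.4 and 12.0 (A-LMSCs), 19.0 and 14.2 (PM-LMSCs) and 19.5 and 13.0 FPKM (M-LMSCs), with overlapping stages. Its unadjusted p was under 0.05 only with the block, at a log2 difference of 0.30 in PM-LMSCs (SE 0.221, limma adjusted p = 0.8588) and 0.28 over both later stages (SE 0.191, limma adjusted p = 0.5954). Adam17 measured 3.03 and 2.41 (A-LMSCs), 3.14 and 2.49 (PM-LMSCs) and 4.10 and 3.25 FPKM (M-LMSCs), so that both M-LMSC libraries were above the other 4. The unadjusted p of Adam17 was likewise under 0.05 only with the block, at 0.33 against A-LMSCs (SE 0.161, limma adjusted p = 0.3976) and 0.29 against PM-LMSCs (SE 0.161, limma adjusted p = 0.6622). Adam19 ranged from 41.7 to 58.8 FPKM and differed by 0.27 between M- and PM-LMSCs (SE 0.141, limma adjusted p = 0.6464). Adam15 stayed between 20.3 and 24.1 FPKM and Adam12 between 10.2 and 12.3 FPKM, the narrowest relative ranges among the tested sheddases, and neither had an unadjusted p under 0.05 in any contrast. Adam19, Adam15 and Adam17 overlap exons of opposite-strand genes.

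Adam23 (chr1:63445891-63596276), which lacks the catalytic motif and acts in cell adhesion, measured 4.09 and 2.37 (A-LMSCs), 2.95 and 2.51 (PM-LMSCs) and 7.02 and 4.66 FPKM (M-LMSCs). Both M-LMSC libraries were above the other 4, with a mean 1.808 times that of A-LMSCs and 2.141 times that of PM-LMSCs. The log2 difference of Adam23 for M-LMSCs against A-LMSCs was 0.70 (SE 0.245), with a limma adjusted p of 0.2721, or 0.04018 with the block, in a range of 0.04018 to 0.9575 over the alternatives. With the block and the GC and length correction it was 0.57 (limma adjusted p = 0.1019), and the call was lost. Against PM-LMSCs it was 0.86 (SE 0.245, limma adjusted p = 0.4056), and for both later stages against A-LMSCs it was 0.27 (SE 0.212, limma adjusted p = 0.6273).

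Among the ADAMTS proteases, Adamts12 (chr15:11064790-11349231), an enzyme that cuts cartilage oligomeric matrix protein, was higher at each later stage. It measured 10.6 and 8.37 (A-LMSCs), 13.1 and 12.4 (PM-LMSCs) and 15.1 and 15.2 FPKM (M-LMSCs), without overlap between stages. The stage means were 1.347 and 1.605 times that of A-LMSCs. On the log2 scale, Adamts12 differed by 0.40 for PM-LMSCs (SE 0.133, limma adjusted p = 0.5991) and by 0.52 over both later stages (SE 0.115, limma adjusted p = 0.2063). For M-LMSCs the difference was 0.64 (SE 0.133), with a limma adjusted p of 0.1185, or 0.0356 with the block, in a range of 0.0356 to 0.713 over the alternatives. When the blocked fit was corrected for GC content and transcript length, the Adamts12 difference was 0.49 and its limma adjusted p 0.1072.

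The proteoglycan-cleaving members were led by Adamts5 and Adamts1, neighbors on chromosome 16 that degrade aggrecan and versican. Adamts5 measured 65.3 and 43.0 (A-LMSCs), 58.7 and 47.2 (PM-LMSCs) and 98.8 and 44.8 FPKM (M-LMSCs). Adamts1 measured 49.5 and 32.9 (A-LMSCs), 43.1 and 39.7 (PM-LMSCs) and 76.8 and 42.5 FPKM (M-LMSCs). M-LMSC replicate 1 was the highest library for both, replicate 1 exceeded replicate 2 at every stage, and the ratio of Adamts5 to Adamts1 stayed between 1.05 and 1.36. Adamts5 had no unadjusted p under 0.05, and that of Adamts1 was under 0.05 only with the block, at 0.49 for M-LMSCs against A-LMSCs (SE 0.298, limma adjusted p = 0.4691) and 0.46 against PM-LMSCs (SE 0.298, limma adjusted p = 0.6915).

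Adamts4 and Adamts9, both proteoglycanases at lower levels, lay above all A- and PM-LMSC libraries in both M-LMSC libraries, and neither passed the test without or with the block. Adamts4 measured 2.18 and 1.67 (A-LMSCs), 2.19 and 2.00 (PM-LMSCs) and 3.26 and 3.09 FPKM (M-LMSCs). Its log2 difference was 0.52 against A-LMSCs (SE 0.131, limma adjusted p = 0.1597), 0.43 against PM-LMSCs (SE 0.131, limma adjusted p = 0.4139), and 0.30 for both later stages against A-LMSCs (SE 0.113, limma adjusted p = 0.4083). Against A-LMSCs the limma adjusted p of Adamts4 was 0.05204 with the block and 0.03718 with the block and the GC and length correction, where the difference was 0.61, in a range of 0.03718 to 0.882 over the alternatives. Adamts9 measured 1.90 and 1.34 (A-LMSCs), 1.30 and 1.33 (PM-LMSCs) and 2.59 and 2.48 FPKM (M-LMSCs). Adamts9 had a log2 difference of 0.44 for M-LMSCs against A-LMSCs (SE 0.136, limma adjusted p = 0.2292, or 0.09497 with the block, in a range of 0.09497 to 0.941) and 0.61 against PM-LMSCs (SE 0.136, limma adjusted p = 0.2866). Adamts9 shares 1805 exonic bases with genes on the opposite strand. Adamts15 reached 0.813 FPKM at most.

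The procollagen N-proteinase Adamts2, which trims fibrillar procollagens before they assemble, was lower in PM-LMSCs alone, at 32.0 and 34.9 (A-LMSCs), 21.8 and 24.5 (PM-LMSCs) and 29.4 and 38.5 FPKM (M-LMSCs). The log2 difference of Adamts2 was -0.51 for PM-LMSCs against A-LMSCs (SE 0.152, limma adjusted p = 0.5313), 0.52 for M-LMSCs against PM-LMSCs (SE 0.152, limma adjusted p = 0.4109) and -0.25 for both later stages against A-LMSCs (SE 0.132, limma adjusted p = 0.5195), the last with an unadjusted p under 0.05 only with the block. Adamts14, its relative, stayed between 1.68 and 2.20 FPKM. Adamts10, Adamts6 and Adamts7 ranged from 1.02 to 4.16 FPKM, and of these only Adamts7 had an unadjusted p under 0.05, with the block, at 0.46 for M-LMSCs against A-LMSCs (SE 0.237, limma adjusted p = 0.4117). Adamts7 measured 1.07 and 1.02 (A-LMSCs), 1.05 and 1.71 (PM-LMSCs) and 1.25 and 2.54 FPKM (M-LMSCs).

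Mmp19 and Mmp23 complete the tested MMPs. Mmp19, a soluble enzyme of basement membrane proteins, measured 13.9 and 15.1 (A-LMSCs), 11.4 and 12.3 (PM-LMSCs) and 15.9 and 17.8 FPKM (M-LMSCs), with no overlap between stages. On the log2 scale, Mmp19 differed by -0.27 for PM-LMSCs against A-LMSCs (SE 0.117, limma adjusted p = 0.7738) and 0.47 for M-LMSCs against PM-LMSCs (SE 0.117, limma adjusted p = 0.334). Exons of Mmp19 overlap opposite-strand genes over 1001 bases. Mmp23 measured 7.77 and 6.93 (A-LMSCs), 4.70 and 6.91 (PM-LMSCs) and 6.17 and 15.2 FPKM (M-LMSCs), where M-LMSC replicate 2 alone was high. Its log2 difference for M-LMSCs against PM-LMSCs was 0.68 (SE 0.367, limma adjusted p = 0.6541), with an unadjusted p under 0.05 only with the block. Mmp28 reached 0.785 FPKM at most.

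Counted by separation of libraries, 5 members were higher and 10 lower in both PM-LMSC than in both A-LMSC libraries, with backgrounds of 19.6% and 19.7% of tested genes. In M-LMSCs 10 members were higher than in both A-LMSC libraries and 4 lower, with backgrounds of 27.1% and 24.4%. Between M- and PM-LMSCs the counts were 10 higher and 3 lower, with backgrounds of 17.8% and 16.7%. Adamts12, Mmp12 and Mmp2 were above and Mmp10, Mmp17 and Mmp3 below both A-LMSC libraries in all 4 later libraries, with a background of 10.7% in each direction.

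Differences between libraries of the same stage often ran the same way for all 3 stages. Replicate 1 exceeded replicate 2 at each stage for 11 members (Adam9, Adam10, Adam17, Adam19, Adam23, Adamts1, Adamts4, Adamts5, Adamts6, Mmp16 and Timp1), with a background of 26.0%. Replicate 2 exceeded replicate 1 at each stage for 8 members (Adam15, Adamts2, Adamts10, Adamts14, Mmp2, Mmp11, Mmp14 and Mmp19), with a background of 21.2%. The former had a median transcript of 4884 bases with 46.61% GC and the latter one of 3658 bases with 55.93% GC. The same contrast was present among all tested genes, at 4174 bases and 45.28% GC against 2696 bases and 54.16% GC. The part of GC content and length in the stage differences was examined only through the corrected fit.

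**Figure D5:**
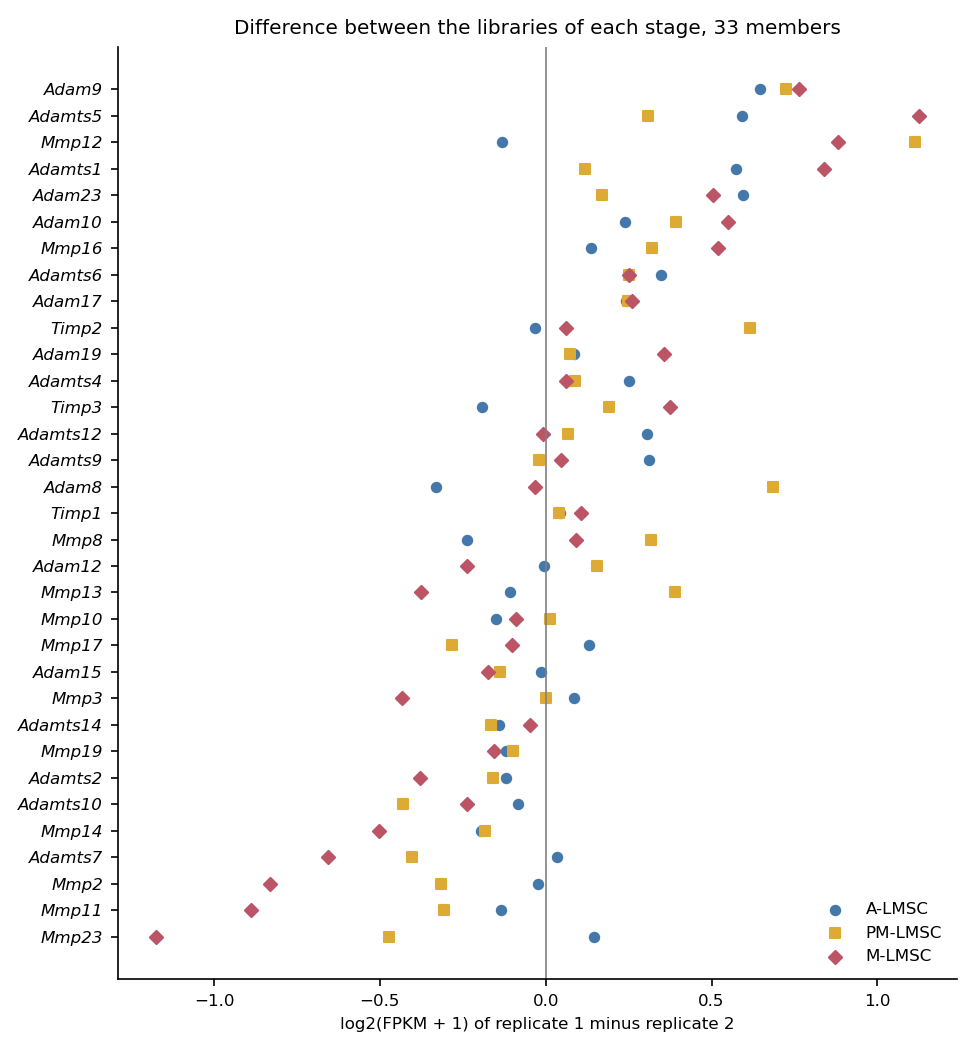
Difference in log2(FPKM + 1) between replicate 1 and replicate 2 of each stage (horizontal axis) for the 33 tested members, with 1 point per stage. Adam9 and Adamts5 lie to the right of 0 at all 3 stages and Mmp2 and Mmp11 to the left, and the spread is widest in M-LMSCs.

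A list of 46 other genes held those that activate, inhibit, induce or dock these proteases, control shedding or are shed by them, and ADAMTS-like genes. Of these, 31 were tested. By adjusted p none was called by limma in any contrast, and at an unadjusted p under 0.05 there were 4 for PM-LMSCs against A-LMSCs (background 6.53%), 4 for M-LMSCs against A-LMSCs (14.6%), 1 for M-LMSCs against PM-LMSCs (8.94%) and 5 for both later stages against A-LMSCs (11.2%). With the block these counts were 8, 10, 4 and 8, with backgrounds of 13.8%, 24.3%, 16.0% and 20.8%, and 3, 2, 2 and 2 of them were lower. The median difference of the 31 genes was -0.003 for M-LMSCs against A-LMSCs, with 15 above and 16 below 0. For both later stages against A-LMSCs it was 0.008, with 16 above and 15 below 0. Pcsk6, a proprotein convertase, measured 5.96 and 6.18 (A-LMSCs), 10.2 and 12.7 (PM-LMSCs) and 7.78 and 12.9 FPKM (M-LMSCs). All 4 later libraries of Pcsk6 were higher, by 0.73 on the log2 scale (SE 0.195), with a limma adjusted p of 0.2595, or 0.04993 with the block, in a range of 0.03526 to 0.9994 over the alternatives. The blocked call of Pcsk6 was lost with the GC and length correction, at 0.80 (limma adjusted p = 0.05356). Cx3cl1, a chemokine that ADAMs shed, measured 2.65 and 3.00 (A-LMSCs), 3.44 and 5.31 (PM-LMSCs) and 3.65 and 5.88 FPKM (M-LMSCs). Its difference for M-LMSCs against A-LMSCs was 0.56 (SE 0.239, limma adjusted p = 0.3454), and 0.70 with the block and the correction (limma adjusted p = 0.03987), in a range of 0.03987 to 0.9288 over the alternatives. Hbegf, an EGF-family ligand that ADAMs shed, measured 14.1 and 14.4 (A-LMSCs), 23.2 and 18.5 (PM-LMSCs) and 16.7 and 16.7 FPKM (M-LMSCs), with a log2 difference of 0.51 for PM-LMSCs against A-LMSCs (SE 0.131, limma adjusted p = 0.4517). Cxcl16, a chemokine shed by Adam10, differed by 0.39 in M-LMSCs against A-LMSCs (SE 0.134, limma adjusted p = 0.2686), and Reck, a membrane-anchored MMP inhibitor, by 0.38 (SE 0.138, limma adjusted p = 0.2911). There Tspan17 differed by 0.36 (SE 0.132, limma adjusted p = 0.2909). Furin differed by -0.39 (SE 0.189, limma adjusted p = 0.3967), with an unadjusted p under 0.05 only with the block. Over both later stages Bsg differed by -0.24 (SE 0.098, limma adjusted p = 0.4436). Tfpi2 differed by 0.50 in PM-LMSCs against A-LMSCs (SE 0.202, limma adjusted p = 0.7474). Plat, the tissue plasminogen activator, differed by 0.80 between M- and PM-LMSCs (SE 0.252, limma adjusted p = 0.4278), while its substrate gene Plg was listed at 0 in every library.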

How the data were processed

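The authors deposited 1 FPKM value per gene and library. The submitters' processing notes name TopHat2 2.0.9 and mm10, and the counting tool, annotation and use of strand are not given in the sources used here. Depth was estimated from the spacing of low values. Of the identifiers, 34267 were found in GENCODE M21 (GRCm38) and 478 were not. The 10279 genes that averaged at least 1 FPKM across libraries were fitted as log2(FPKM + 1) with limma 3.58.1 in R 4.3.3 (lmFit, eBayes with trend), with 1 mean per stage and Benjamini-Hochberg adjustment over all tested genes. Such differences understate the change of genes near 1 FPKM. Deviations from the stage mean correlated between libraries of the same number at 0.238 (A and PM), 0.307 (A and M) and 0.491 (PM and M) over genes. The main fit did not use this pairing. A fit with the number as a block was an alternative, given where it changed a call or count. Standard errors are those of the main fit unless stated, also beside a blocked p-value. Near-identical stretches (at least 95% over at least 200 bases) were sought with blastn 2.17.0, and other steps used Python 3.11.15. Alternatives were the pseudocount, the filter on low values, quantile normalization, median centring, the libraries fitted, the block, and each library left out. A blocked fit corrected for GC content and length (lowess, span 0.3) was added after the data were seen. Members and lists were chosen with earlier results of these data known. Members with a mean of at least 1 FPKM are named, with fold changes where the unadjusted p was under 0.05 with or without the block. Lower members are named from 0.5 FPKM, and Timp and collagenase members and the chromosome 9 cluster at any level. Count models could not be used. The fits were tested on simulated data.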

Additional observations from a re-analysis of the deposited data

Results flagged for a closer look

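Mmp19 and Adamts9 were flagged because their PM-LMSC and M-LMSC libraries lay on opposite sides of the A-LMSC libraries. The share of all tested genes with this pattern was not computed, so the flag has no background beside it. Both genes were picked by the order of these same values, so the tests below are not independent of the choice. For both genes, each PM-LMSC library was below both A-LMSC libraries and each M-LMSC library was above them. On the PM-LMSC side of Adamts9 the gap was small, with the higher PM-LMSC library at 1.333 and the lower A-LMSC library at 1.337 FPKM. The difference of PM-LMSCs from A-LMSCs was -0.17 for Adamts9 (limma adjusted p = 0.8673, or 0.6046 with the block) and -0.27 for Mmp19 (limma adjusted p = 0.7738, or 0.2851 with the block). The test of the difference itself, M-LMSCs against PM-LMSCs, gave 0.474 for Mmp19 on the log2(FPKM + 1) scale (limma adjusted p = 0.334, or 0.1052 with the block) and 0.609 for Adamts9 (limma adjusted p = 0.2866, or 0.09953 with the block). Over the alternatives the adjusted p ranged from 0.1052 to 0.7006 for Mmp19 and from 0.09953 to 0.6635 for Adamts9, so neither passed the correction in any of them.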

How the results depend on the processing

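With 2 libraries per stage, the number called rested on the settings. For M-LMSCs against A-LMSCs, 0 members were called without the replicate block and 6 with it, or 5 with it and the correction for GC content and length (Adam8, Adamts4 and Mmp2 higher, Mmp10 and Mmp13 lower). Leaving out each library in turn gave 0 to 1 members, namely Mmp2 at 1.33 without M-LMSC replicate 1 (limma adjusted p = 0.02334) and Mmp3 at -0.85 without M-LMSC replicate 2 (0.04836), and for both later stages together 0 to 1, namely Mmp2 at 1.01 (0.02048) and Mmp3 at -0.77 (0.03926) without the same libraries. A lone library was assumed to vary like the other stages. Of all genes, 4 were called for PM-LMSCs against A-LMSCs, against 1 with no filter, 21 with only the stages compared, 30 with the block and 1 to 28 with a library left out. For M-LMSCs against A-LMSCs 7 were called, against 3 with no filter, 4 at a mean of at least 5 FPKM, 1 with only the stages compared, 403 with the block, 332 with the block and the correction, and 1 to 90 with a library left out. For M-LMSCs against PM-LMSCs 3 were called, against 43 with the block, 7 with the block and the correction, and 2 to 25 with a library left out. For both later stages 13 were called, against 0 with no filter (1961 at an unadjusted p under 0.05), 7 with median centring, 211 with the block, 126 with the block and the correction, and 0 to 93 with a library left out. Of the regulators, 1 was called with the block (both later stages), 1 with the block and the correction (M-LMSCs against A-LMSCs), and 0 to 1 with a library left out. Of 735 alternative values for 55 named differences of 22 members, 715 kept direction and call, 15 were newly called and 5 reversed. These 5 were Adam9 for M-LMSCs against A-LMSCs (-0.07 without A-LMSC replicate 2 and -0.13 without M-LMSC replicate 1, in a range to 0.635), Adam9 for M-LMSCs against PM-LMSCs (0.113 without PM-LMSC replicate 1 and 0.133 without M-LMSC replicate 2, in a range from -0.632) and Adam23 over both later stages (-0.024 without A-LMSC replicate 2, in a range to 0.572). The causes were not tested. Depth limits members near 1 FPKM most.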
